A study of Mus musculus with 19 samples.

Results

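The genes examined were the 8 mouse genes that encode the DNA methyltransferases and their cofactors (Dnmt1, Uhrf1, Dnmt3a, Dnmt3b and Dnmt3l) and the TET dioxygenases (Tet1, Tet2 and Tet3). They were taken by name from the deposited expression matrix, which held all 8 among its 12778 genes. RNA 3′ ends had been sequenced by QuantSeq in 19 libraries of mouse cells in 6 groups, all grown with LIF and serum. Induced pluripotent stem cells (iPSC) were fibroblasts of embryos reprogrammed by Oct4, Sox2 and Klf4, and were collected after more than 18 passages. They were wild type (WT, 3 libraries), deleted for the miR-290 microRNA cluster, deleted for the miR-302 cluster, or deleted for both (double KO). Each of these 3 KO groups had 2 colonies with 2 libraries per colony. Embryonic stem cells (ESC) were miR-290 KO or miR-302 KO, with 2 libraries each, and no WT ESC library was used. The 2 libraries of a colony were averaged, which gave 13 samples: 3 of WT iPSC and 2 of each other group. The WT iPSC were excepted from the series' statement that replicates were derived independently, so the 3 WT libraries may stand for 1 derivation. Nothing says that the 2 ESC libraries of a genotype came from separate lines, and p-values then measure only the spread between these samples.

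DNA methylation on cytosine is set by DNMT3A and DNMT3B, which methylate unmodified DNA, with DNMT3L as a cofactor that has no catalytic activity of its own. DNMT1 copies the pattern at replication, brought to newly made DNA by UHRF1, which binds hemimethylated sites. TET proteins oxidise methylcytosine, the first step of its removal, and Tet1 and Tet2 are known as the TET genes of mouse pluripotent cells, while Tet3 is known from the oocyte, the zygote and somatic tissues. In Dicer-deficient ESC, loss of the miR-290 family was linked in earlier work to a rise of Rbl2 and a fall of the de novo methyltransferases, which makes these genes a natural question for cells that lack one or both clusters.

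Several microRNAs of the 2 deleted clusters share their seed, the bases that pair with target transcripts. The mature sequences below, from RefSeq (GRCm38.p6), show that shared stretch, with bases 2 to 8 in capitals.
mmu-miR-291a-3p: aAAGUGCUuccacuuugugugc
mmu-miR-294-3p: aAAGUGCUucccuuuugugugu
mmu-miR-295-3p: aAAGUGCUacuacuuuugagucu
mmu-miR-302b-3p: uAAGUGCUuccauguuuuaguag
mmu-miR-302d-3p: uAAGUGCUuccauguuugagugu
These 5 had the same bases 2 to 8. The first 3 lie in the miR-290 cluster on chromosome 7 and the last 2 in the miR-302 cluster on chromosome 3. In 3 further members, miR-290a-3p, miR-291b-3p and miR-302c-3p, the stretch differed: it read AAGUGCC in the first of these, AAGUGCA in the next and AGUGCUU in miR-302c-3p. In miR-302c-3p, AAGUGC starts at base 1, and in the other microRNAs shown or named here it starts at base 2. Further members of the clusters were not examined. The mature microRNAs themselves were not measured here, since the assay reads polyadenylated transcripts.

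Matches to that seed were searched in the 3′ untranslated regions (UTRs) of the 8 genes, on the transcript strand, as AGCACTT (pairing with bases 2 to 8) or as GCACTTA, which pairs with bases 2 to 7 and ends in an adenine. Where both overlapped, 1 match was counted. Tet3 held 3 matches in 5669 bases of UTR, Tet1 held 2 in 7962 and Tet2 held 1 in 3058. Each match was AGCACTT, and the stretches around them, 23 bases each with the match in capitals, are shown because they are the matches in the 8 genes to the seed that the 5 printed microRNAs of both clusters share (mm10, minus strand, GENCODE M21 transcripts). Matches to the other seeds of the clusters were not searched.
Tet3 first match, chr6:83367836-83367858: tcttccccAGCACTTtgaagaaa
Tet3 second match, chr6:83366204-83366226: tttttttaAGCACTTttgcctag
Tet3 last match, chr6:83363402-83363424: atctacgcAGCACTTggtttatc
Tet1 first match, chr10:62811878-62811900: ttttaaaaAGCACTTtctacttt
Tet1 second match, chr10:62805022-62805044: atagttaaAGCACTTcatgacat
Tet2, chr3:133465907-133465929: cttagaaaAGCACTTtgcctacc
None of the 5 DNMT and UHRF1 genes held a match in the annotated UTR used, which is 6696 bases long in Dnmt3a, 1331 in Dnmt3b, 984 in Uhrf1, 312 in Dnmt1 and 273 in Dnmt3l. Long UTRs hold such a match often. Among genes whose UTR length was within a factor of 1.25, 58.0% had a match for Tet3, 67.3% for Tet1, 37.2% for Tet2 and 63.2% for Dnmt3a, against 17.6% of all 20914 genes with a UTR. A match describes the sequence and is not evidence of pairing in these cells.

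In the double KO, the RNAs of the de novo methylation genes Dnmt3b and Dnmt3l and of Tet1 were far below WT iPSC, while Tet3 RNA was far above it. Dnmt1 and Dnmt3a did not pass the test. Levels are given as CPM, the reads recovered for a gene scaled to the recovered total of its library, and changes as log2 differences of the deposited values. Genes count as called where limma's p, adjusted by Benjamini-Hochberg over all 12778 genes, was under 0.05. Of the 8 genes, 1 was called higher (Tet3) and 4 lower (Dnmt3b, Dnmt3l, Tet1 and Uhrf1) in the double KO against WT, in a comparison that called 49% of all genes, 27.4% higher and 21.5% lower. The count of 5 of 8 is therefore near the share of all genes called in that comparison, and the sizes of single changes carry the description. The median change of the 8 was -0.70 on the log2 scale, beside 0.16 over all genes. The samples of the 2 groups did not overlap in 6 of the 8 genes, beside 71.2% of all genes.

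**Figure D1:**
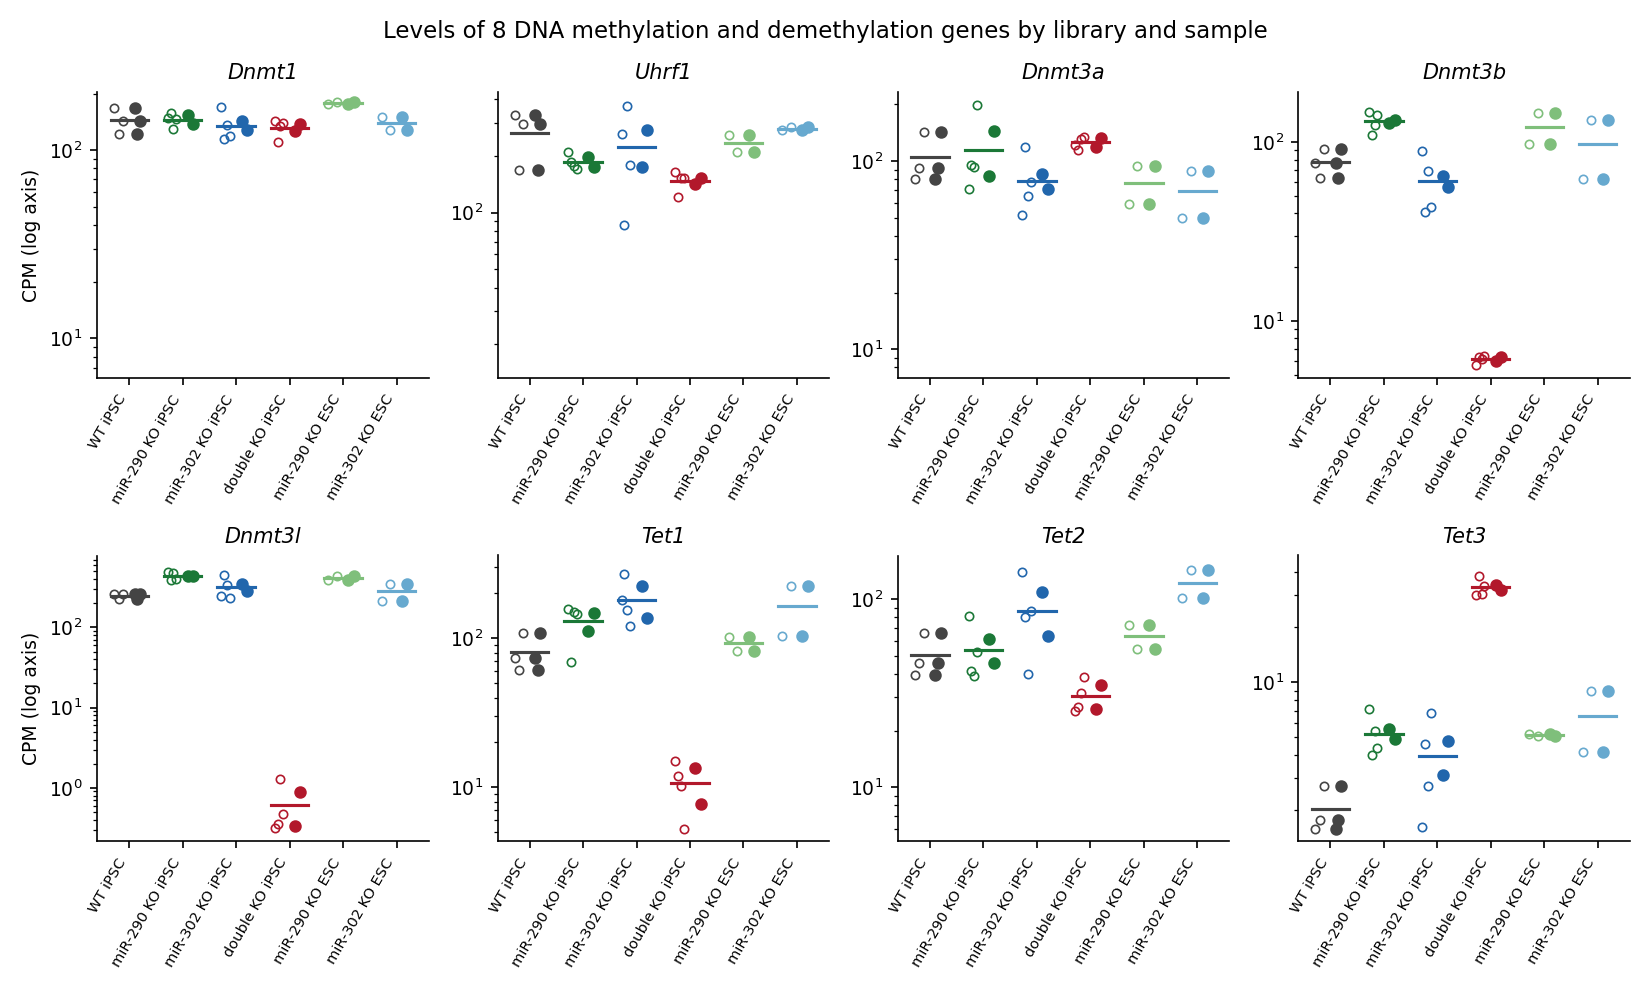
Levels of the 8 genes in CPM on a log axis, by group. Open points are libraries, filled points are the 13 samples and bars are group means. The double KO samples lie below every other sample for Dnmt3b, Dnmt3l and Tet1, and by small margins for Uhrf1 and Tet2. They lie above every other sample for Tet3.

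Dnmt3l, the cofactor of the de novo enzymes (chromosome 10, 78041947 to 78063622, plus strand), showed the largest change among the 8. Its level was 260.4, 226.8 and 262.7 CPM in the 3 WT libraries, and 0.33 and 0.88 CPM in the 2 double KO colonies. Single KO iPSC gave 443.9 and 437.6 CPM without miR-290 and 349.5 and 285.4 CPM without miR-302. The double KO values rest on 5, 5, 23 and 8 reads in its 4 libraries, 41 reads in all, beside 12850 reads in WT. No other group came near the double KO range. The fitted change was -8.52 ± 0.27 (SE) on the log2 scale, a 367-fold lower level, with an adjusted p of 2.28e-10. Over 22 alternative analyses the change ran from -9.02 to -7.32. Between the 2 double KO colonies the deposited values differed by 1.00 on the log2 scale, while the SE uses the spread shared by all groups.

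Dnmt3b, the de novo methyltransferase of the early embryo (chromosome 2, 153649450 to 153687730, plus strand), fell with it but kept a measurable level. It stood at 77.0, 63.3 and 91.8 CPM in WT and at 5.96 and 6.27 CPM in the double KO colonies. It stood at 128.4 and 133.5 CPM in miR-290 KO iPSC and at 64.8 and 56.4 CPM in miR-302 KO iPSC. The double KO colonies agreed closely and lay below every other sample. The change against WT was -3.58 ± 0.29 on the log2 scale, 11.9-fold lower (adjusted p = 1.07e-06). Dnmt3a, the other de novo enzyme (chromosome 12, 3806007 to 3914443, plus strand), differed from WT by 0.34 on the log2 scale, with a 95% confidence interval of -0.37 to 1.05 and an adjusted p of 0.413. Its samples ran from 80.1 to 143.3 CPM in WT and from 117.9 to 132.9 CPM in the double KO, so the groups overlapped.

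Of the maintenance genes, Dnmt1 was not called and Uhrf1 was narrowly called lower. Dnmt1 (chromosome 9, 20907209 to 20959888, minus strand) had 143.9 ± 22.4 CPM in WT (SD, n = 3) and 131.9 ± 7.25 CPM in the 2 double KO colonies (SD, n = 2). The log2 difference was -0.08, with an interval of -0.46 to 0.30 (adjusted p = 0.731), and the samples overlapped. Uhrf1 (chromosome 17, 56303321 to 56323486, plus strand) was at 329.1, 168.2 and 294.3 CPM in WT and at 142.5 and 153.0 CPM in the double KO. Its double KO samples lay below the lowest WT sample, and the change of -0.75 ± 0.28 passed the test narrowly (adjusted p = 0.0454). That call was lost in 14 of 22 alternative analyses, with adjusted p-values up to 0.173. Leaving out the WT library with 329.1 CPM gave -0.56 with an adjusted p of 0.155, and leaving out the one with 168.2 CPM gave -1.05 with an adjusted p of 0.0055.

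The 2 de novo genes that fell differ in the CpG content of their promoters, which is shown because CpG sites are what these enzymes methylate. The windows of 300 bases span an annotated start (RefSeq, GRCm38.p6, plus strand), with CG in capitals.
Dnmt3l, chr10:78042037-78042336: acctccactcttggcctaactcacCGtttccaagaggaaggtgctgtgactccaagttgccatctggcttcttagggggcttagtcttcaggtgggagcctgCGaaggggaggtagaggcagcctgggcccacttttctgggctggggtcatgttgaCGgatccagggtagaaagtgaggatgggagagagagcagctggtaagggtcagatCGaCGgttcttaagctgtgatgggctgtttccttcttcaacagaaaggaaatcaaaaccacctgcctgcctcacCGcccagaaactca
Dnmt3b, chr2:153649199-153649498: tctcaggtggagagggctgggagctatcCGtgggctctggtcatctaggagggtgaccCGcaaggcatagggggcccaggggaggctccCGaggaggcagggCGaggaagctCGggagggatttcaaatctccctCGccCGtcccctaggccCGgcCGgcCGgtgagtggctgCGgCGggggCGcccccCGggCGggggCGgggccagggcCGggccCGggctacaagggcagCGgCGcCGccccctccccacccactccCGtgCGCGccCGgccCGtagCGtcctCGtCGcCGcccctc
The Dnmt3l window holds 6 CG and the other 2 annotated starts of that gene hold 4 and 3. The Dnmt3b window holds 30. Over all 32851 promoters of the table the median was 7 CG, with quartiles of 3 and 20, and 94.6% held at least 1 (CG reads the same on both strands). Among the TET genes the windows held 17 CG in Tet1, 22 in Tet3 and 57 in Tet2. Which start was in use cannot be read from 3′ tags, and methylation was not measured in these libraries.

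The 3 TET genes, whose products remove methylation, moved in different directions in the double KO. Tet1 (chromosome 10, 62804570 to 62908996, minus strand) had 73.8, 60.9 and 108.4 CPM in WT. The double KO colonies had 13.5 and 7.73 CPM, and all other samples had at least 60.9 CPM. The change was -2.93 ± 0.37 on the log2 scale, 7.61-fold lower (adjusted p = 4.62e-05). Tet3 (chromosome 6, 83362373 to 83459084, minus strand) had 1.58, 1.76 and 2.69 CPM in WT. In the double KO it had 34.2 and 32.1 CPM. The highest value in any other group was 8.97 CPM, so the double KO colonies stood clear of all groups. The change was 4.02 ± 0.38 on the log2 scale, 16.2-fold higher (adjusted p = 3.60e-06). The WT level of Tet3 rested on 29, 33 and 39 reads per library, and the double KO level on 484 to 573 reads.

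Tet2 (chromosome 3, 133463679 to 133545139, minus strand) had 39.2, 45.7 and 65.9 CPM in WT and 26.1 and 35.0 CPM in the double KO. The groups did not overlap, but the change of -0.66 ± 0.30 did not pass the test (adjusted p = 0.0860). With median-of-ratios scaling, which lowers the median change of all genes in this comparison by 0.15 on the log2 scale, it was -0.81 with an adjusted p of 0.0422. The direction of each of the 5 called changes was the same under that scaling.

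**Figure D2:**
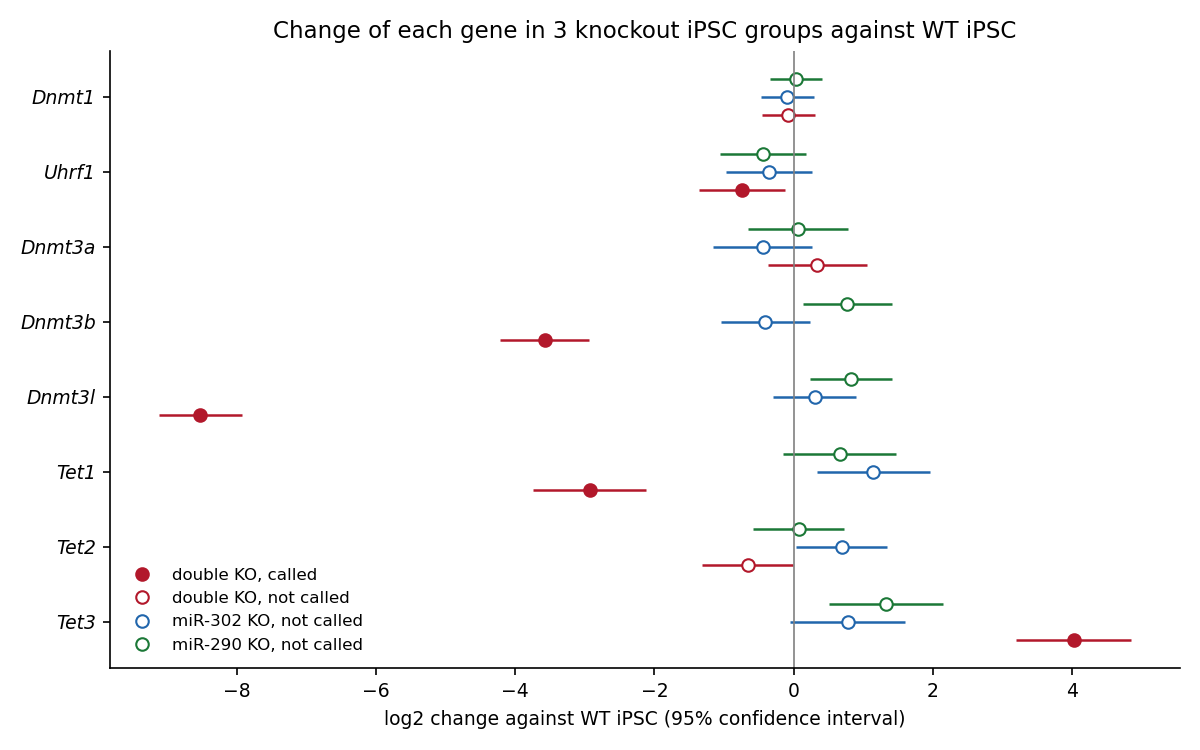
Log2 change of each gene against WT iPSC with its 95% confidence interval, for 3 knockout iPSC groups. Filled points passed the test (adjusted p under 0.05) and open points did not. The double KO values of Dnmt3l (-8.52), Dnmt3b (-3.58), Tet1 (-2.93) and Tet3 (4.02) lie outside the intervals of both single KO groups.

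These differences came with a loss of the pluripotent marker set. All 12 pluripotent markers were called lower in the double KO, and their summed level was 232 to 326 CPM in its colonies, against 3751 to 4855 CPM in WT. The mean level of Nanog was 2.34 CPM in the double KO against a WT mean of 689 CPM, and that of Esrrb 0.53 against 317 CPM. The fall was uneven. Fgf4 kept a mean of 177 CPM in the double KO against 276 CPM in WT, and so held most of the remaining sum. Thus the double KO colonies are called iPSC in the labels but do not carry the summed marker level of pluripotent cells. Single KO iPSC (4499 to 5267 CPM) and both ESC groups (4071 to 5233 CPM) do. Markers of other cell types were measured only in part. None of the 4 fibroblast markers measured, of 11 listed, was called higher, with sums of 4.91 and 28.0 CPM in the double KO colonies and 6.79 to 9.02 CPM in WT. For primitive endoderm, none of the 3 markers measured, of 7 listed, was called higher (sums of 69.6 to 88.1 CPM against 62.8 to 75.5 CPM), and Gata4 had 0 reads. For trophoblast, none of the 5 measured, of 6 listed, was called higher (3.33 to 40.9 CPM against 49.8 to 143.8 CPM). Single markers stood high in 1 double KO colony, and not in the same one. Fbn1 of the fibroblast list was at 20.0 CPM in one and 1.59 CPM in the other, beside 1.45 ± 0.87 CPM in WT. Cdx2 of the trophoblast list was at 0.51 CPM in the colony with high Fbn1 and at 21.3 CPM in the other. Its WT level was 3.22 ± 2.00 CPM. The part of the changed cell state in the levels of the 8 genes was not tested. In bulk RNA, fewer cells that carry a transcript and less of it per cell cannot be told apart.

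Loss of 1 cluster alone left the 8 genes without a called change. In miR-290 KO iPSC, 0 of 8 were called (limma), beside 1.57% of all genes. An unadjusted p under 0.05 was found for 2136 of all genes and for 3 of the 8. These were Tet3 (1.32 ± 0.38 on the log2 scale, adjusted p = 0.105), Dnmt3l (0.82 ± 0.27, adjusted p = 0.156) and Dnmt3b (0.77 ± 0.29, adjusted p = 0.212). All 3 differences were positive, and in each the 2 colonies lay above the 3 WT libraries, where 37.9% of all genes had groups that did not overlap. Tet3 stood at 5.57 and 4.88 CPM in the miR-290 KO colonies, and with estimated sample weights its difference passed the test, as the only one of the 8. The authors' deposited table for this comparison lists 1429 genes with an adjusted p of at most 0.05, while 201 genes were called here. It holds the same 3 genes, with log2 fold changes of 1.27 for Tet3, 0.69 for Dnmt3l and 0.63 for Dnmt3b. Both analyses rest on libraries of this series. For Dnmt3b and Dnmt3l the sign of the difference in miR-290 KO was thus opposite to that of the called change in the double KO.

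In miR-302 KO iPSC, 0 of 8 were called, beside 0.0313% of all genes. An unadjusted p under 0.05 was found for 1928 of all genes and for 2 of the 8. Tet1 was at 224.2 and 137.5 CPM in the 2 colonies, 1.14 ± 0.37 above WT on the log2 scale (adjusted p = 0.263). Tet2 was at 109.4 and 63.3 CPM, 0.69 ± 0.30 above WT (adjusted p = 0.316), with its lower colony inside the WT range. Tet3 differed by 0.78 (interval -0.05 to 1.60) and Dnmt3b by -0.41 (interval -1.04 to 0.23). The authors' deposited table for miR-302 KO against WT holds 43 genes and lists none of the 8. For Dnmt1, the intervals of both single KO groups against WT lay between -0.47 and 0.41.

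Among the miR-302 KO iPSC, 1 library (colony 1, library 2) stood apart, with the lowest mean correlation to the other libraries of its group (0.852, against 0.904 or more for every other library). In that library Uhrf1 was at 85.8 CPM, against 180.3 to 370.1 CPM in the other 3 of the group, and Dnmt3a at 118.5 CPM against 51.5 to 77.3 CPM. With colony 1 represented by its library 1 alone, the count of called genes in miR-302 KO against WT stayed at 0. In 7 of the 8 genes, the libraries of at least 1 colony of this group differed more than its colonies did: for Dnmt3b the 2 libraries of colony 1 differed by 1.14 on the log2 scale and the colonies by 0.14. Tet1 was the exception, with 0.57 and 0.34 within the colonies and 0.69 between them. This spread was not particular to miR-302 KO. By the same measure it was found in 8 of 8 genes in miR-290 KO iPSC and in 6 of 8 in the double KO. The measure sets the larger of 2 differences between single libraries against 1 difference between averages, which favours high counts. It therefore cannot tell whether colonies differ. In the double KO, the libraries of a colony differed by at most 0.16 for Dnmt3b and 0.36 for Tet3, but by up to 0.92 for Tet1 and 1.23 for Dnmt3l, both in colony 2.

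Against each single KO, the double KO showed the same 4 genes with large differences. Against miR-290 KO iPSC, 4 of 8 were called, 1 higher and 3 lower, beside 32.4% of all genes (15.6% higher and 16.8% lower). Dnmt3l was lower by a log2 difference of -9.34 ± 0.30 (adjusted p = 3.98e-10), Dnmt3b by -4.35 ± 0.32 (6.34e-07) and Tet1 by -3.59 ± 0.41 (3.21e-05), and Tet3 was higher by 2.70 ± 0.42 (3.56e-04). Against miR-302 KO iPSC, 5 of 8 were called, beside 46.9% of all genes. The same 4 genes differed by -8.82 (Dnmt3l), -3.17 (Dnmt3b), -4.07 (Tet1) and 3.25 (Tet3), and Tet2 was called lower as well (-1.35 ± 0.33, adjusted p = 0.00508). The Tet2 call was lost without miR-302 KO colony 1, at -0.92. With that colony as its library 1 alone, Uhrf1 and Dnmt3a also passed. The 2 comparisons share the double KO colonies, so their values are not independent.

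Whether the joint loss equalled the sum of the single losses was tested as an interaction on the log2 scale. The double KO change differed from the sum of both single KO changes in 5 of 8 genes, beside 23.6% of all genes. Dnmt3l had a summed single change of 1.12 and a double KO change of -8.52, a difference of -9.64 ± 0.41 (adjusted p = 1.46e-08). For Dnmt3b the sum was 0.37 and the difference -3.94 ± 0.44 (adjusted p = 4.74e-05), and for Tet1 the sum was 1.81 and the difference -4.73 ± 0.55 (adjusted p = 7.60e-05). In these 3 genes the single changes added up to a positive value while the double KO change was negative. Tet2 differed from its sum by -1.42 ± 0.45 (adjusted p = 0.0371). Tet3 rose beyond its sum of 2.10 by 1.92 ± 0.56 (adjusted p = 0.0278). The Tet2 and Tet3 calls were each lost in 7 of 22 alternatives. Both were lost when colony 1 or 2 of miR-290 KO was left out. The same held for colony 1 of miR-302 KO and for colony 1 of the double KO. For Uhrf1 the difference from the sum was 0.05, with an interval of -0.86 to 0.97.

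**Figure D3:**
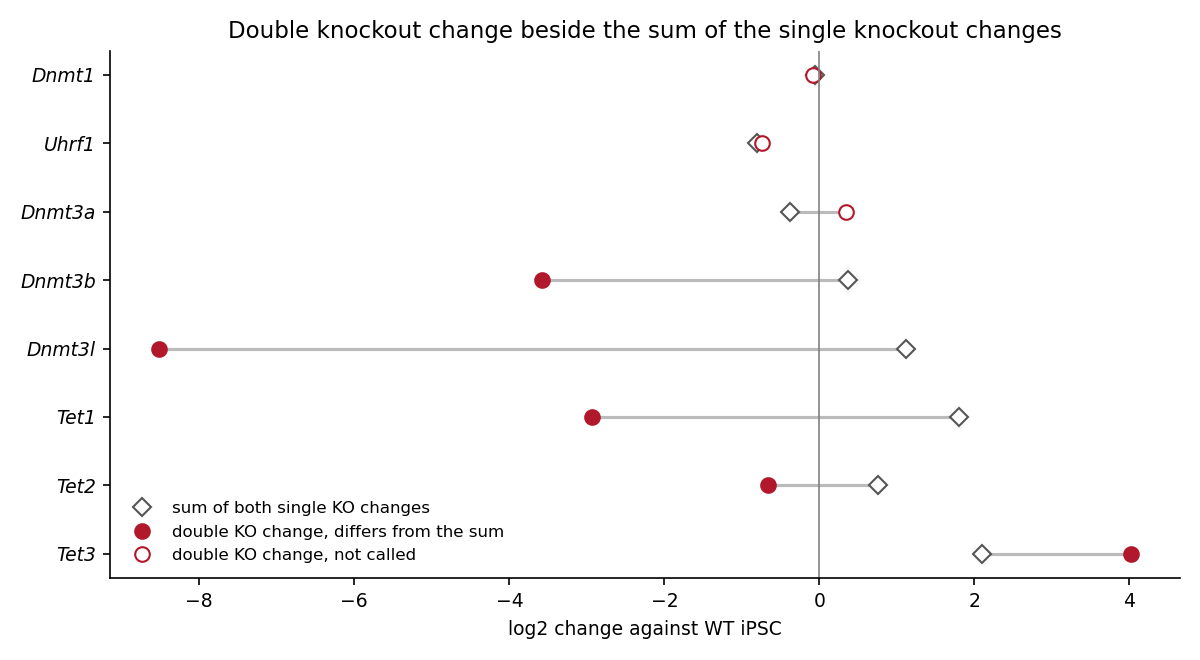
Double KO change (circles) beside the sum of both single KO changes (diamonds) on the log2 scale against WT iPSC. Filled circles mark genes whose double KO change differed from the sum at an adjusted p under 0.05. Among the called genes, the diamond and the circle lie on opposite sides of 0 for Dnmt3b, Dnmt3l, Tet1 and Tet2.

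The 2 single KO genotypes could be compared in both cell origins. In iPSC, 0 of 8 genes were called between miR-290 KO and miR-302 KO, beside 2.25% of all genes. An unadjusted p under 0.05 was found for 2364 of all genes and for 1 of the 8. That gene was Dnmt3b, higher in miR-290 KO by 1.18 ± 0.32 (adjusted p = 0.0742), and it passed without either of the miR-302 KO ESC libraries, which enter only the shared spread. In ESC, 0 of 8 were called, beside 0.587% of all genes. Tet2 was at 72.5 and 54.5 CPM in miR-290 KO ESC and at 101.6 and 142.0 CPM in miR-302 KO ESC, a log2 difference of -0.94 ± 0.33 (adjusted p = 0.249). It was the only one of the 8 with an unadjusted p under 0.05, beside 1632 of all genes.

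Cell origin made no called difference at either genotype. For miR-290 KO, iPSC against ESC called 0 of 8, beside 0% of all genes, with none of the 8 and 492 of all genes at an unadjusted p under 0.05. For miR-302 KO it called 0 of 8, again beside 0% of all genes, with none of the 8 and 1343 of all genes at an unadjusted p under 0.05. The widest interval among the 8 at miR-290 KO was that of Tet3 (-0.91 to 0.89 on the log2 scale). Dnmt3l was at 391.2 and 436.8 CPM in miR-290 KO ESC and at 215.8 and 350.8 CPM in miR-302 KO ESC. The miR-302 KO ESC libraries differed from each other more than the miR-290 KO ESC libraries did for Tet1 (103.5 and 225.1 CPM against 102.7 and 82.4 CPM).

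The order of the 6 groups differed between genes. For Dnmt3l and Dnmt3b the highest mean was that of miR-290 KO iPSC (440.7 ± 4.45 and 130.9 ± 3.57 CPM, SD, n = 2), next to miR-290 KO ESC (414.0 ± 32.3 and 121.3 ± 33.4 CPM), and the gap between these neighbours was within the spread. WT iPSC had the lowest mean for Dnmt3l apart from the double KO (249.96 ± 20.1 CPM, SD, n = 3), and for Dnmt3b a mean of 77.4 ± 14.3 CPM put it at rank 4 of 6. For Tet1 the highest means were those of miR-302 KO iPSC (180.8 ± 61.3 CPM) and miR-302 KO ESC (164.3 ± 86.0 CPM), with overlapping samples. For Tet2 they were miR-302 KO ESC (121.8 ± 28.6 CPM) and miR-302 KO iPSC (86.3 ± 32.6 CPM), also overlapping. For Tet3, WT iPSC was lowest (2.01 ± 0.60 CPM), below miR-302 KO iPSC (3.93 ± 1.17 CPM) with no overlap of samples. Before averaging, a miR-302 KO library at 1.60 CPM lay inside the WT range, and the difference was not called (limma, adjusted p = 0.351). For Dnmt1 the neighbours from miR-290 KO iPSC to the double KO overlapped (145.5 to 131.9 CPM), and miR-290 KO ESC lay above them (178.8 ± 2.72 CPM). Dnmt3a had its highest mean in the double KO (125.4 ± 10.6 CPM) and its lowest in miR-302 KO ESC (68.9 ± 27.3 CPM), and each pair of neighbours overlapped.

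Across the 13 samples, Dnmt3l and Dnmt3b had a Pearson correlation of 0.97 of their log2 values, Dnmt3l and Tet1 of 0.91, and Dnmt3l and Tet3 of -0.83. These are descriptions, since the double KO colonies stand far from all other samples in each of these genes. Over all genes, the pattern most like that of Dnmt3l was that of Utf1 (r = 0.998), followed by Gm7325 and Lincenc1 (both 0.996). Utf1 is a chromatin-associated factor of pluripotent cells. Most like Dnmt3b were Scn3a (0.981), Icosl (0.978) and Sp5 (0.973), and most like Tet1 were Ttn (0.988), Igf2bp1 (0.981) and Zfp534 (0.975). Most like Tet3 were Ano6 (0.973), Tmem33 (0.969) and Abhd13 (0.968). The best matches of Dnmt1 and Dnmt3a, which were not called against WT, were looser, at 0.821 for Dnmt1 (1110037F02Rik) and 0.847 for Dnmt3a (Ppox). For Uhrf1 the best match reached 0.902 (Ppp2r1b), and for Tet2 0.930 (2810474O19Rik).

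Icosl, which encodes a costimulatory ligand of T cells, is also the nearest measured neighbour of Dnmt3l, 5.68 kb to its right on chromosome 10. It was lower in the double KO by a log2 change of -5.05 ± 0.41 (adjusted p = 9.56e-07), while Pfkl, 31.9 kb to the left, changed by -1.25. The neighbours of Dnmt3b changed the other way (Commd7 0.80 and Mapre1 0.91), and those of Tet1 were not called (Ccar1 0.31 and Slc25a16 -0.01). Of the neighbours of Tet3, Bola3, 2.24 kb to the left, was called higher like Tet3 itself (0.91, adjusted p = 0.00946) and Dguok was not called (-0.20). The 584 measured genes of chromosome 6, which carries Tet3, had a median change of 0.65 in the double KO, beside 0.16 over all genes and -0.02 to 0.45 on the other chromosomes that carry the 8 genes. The part of this in the Tet3 value was not tested. The neighbours were looked up after the values of the 8 genes had been seen.

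The other genes of the methylation pathway were described from 6 lists. Of 9 methyl-CpG readers and the UHRF1 relative Uhrf2, all measured, 6 were called higher and 0 lower in the double KO, where 27.4% of all genes were called higher and 21.5% lower. The other 3 were not called. The changes of the 9 ran from -0.22 to 4.82, and their median was 1.70, beside 0.16 over all genes. Zbtb4, a zinc finger protein that binds methylated CpG, rose from 1.28 ± 1.01 CPM in WT (SD, n = 3) to 34.1 ± 15.8 CPM in the double KO (SD, n = 2), a log2 change of 4.82. Zbtb38, of the same family, rose by 2.97 (4.63 to 35.2 CPM).

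Among 18 measured of 19 genes for base excision repair and deaminases, 4 were called higher and 5 lower in the double KO, with a median of -0.06. The 9 called are 50% of the list, beside 49% of all genes. Neil2, a glycosylase, had 487 reads in WT and 1 in the double KO, a ratio of 615 (exact Clopper-Pearson 95% interval from 110 to 24355, covering counting error only), and it was also called lower in miR-290 KO iPSC (-2.03, adjusted p = 0.0346). Ung, the uracil glycosylase, fell by 2.79 on the log2 scale, from 384 ± 43.8 to 53.9 ± 3.07 CPM. Apobec3, a cytidine deaminase, fell by 2.39 on the log2 scale (112.0 to 20.5 CPM). Apobec1, another deaminase, rose by 3.84 (1.3 to 20.5 CPM), Gadd45a, a stress-induced gene, by 2.21 and Lig3, a DNA ligase, by 0.88. Tdg, the glycosylase that excises the oxidised bases TET proteins make, was not called (64.8 to 85.7 CPM, adjusted p = 0.0786).

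Of 21 genes of methyl donor and 2-oxoglutarate metabolism, 2 were called higher and 11 lower in the double KO (median -0.66), beside 27.4% of all genes higher and 21.5% lower. Gldc of the glycine cleavage system fell from 30.2 ± 18.1 to 0.49 ± 0.05 CPM, a log2 change of -5.39. Tdh, the threonine dehydrogenase on which mouse ESC depend for one-carbon units, fell by 2.68 on the log2 scale (897 to 134.9 CPM), and Shmt1, a serine hydroxymethyltransferase, fell by 2.09 (123.7 to 28.3 CPM). Mtr, the methionine synthase, rose by 1.27 (97.1 to 227 CPM) and Ahcyl1, a relative of the S-adenosylhomocysteine hydrolase, by 0.90.

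Of 27 measured of 29 chromatin partners and recruiters, 5 were called higher and 10 lower (median -0.23). The 15 called are 55.6% of the list, near the 49% of all genes. Lin28a, an RNA-binding protein of stem cells reported to bind TET1, fell from 272 ± 68.3 to 0.40 ± 0.04 CPM, a log2 change of -8.96. Sall4, a zinc finger factor of ESC, fell by 3.40 on the log2 scale and Hdac1, a histone deacetylase, fell by 1.51. Suv39h1, an H3K9 methyltransferase, rose by 3.09 (11.8 to 97.4 CPM), Hdac2 by 1.31 and Setd2, an H3K36 methyltransferase, by 1.06.

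Of 10 regulators of the 8 genes, 3 were called higher and 3 lower (median 0.13), which is 6 of 10 beside 49% of all genes. Rbl2, the retinoblastoma family member named above, rose from 3.32 ± 0.86 to 21.9 ± 0.30 CPM in the double KO, a log2 change of 2.73 ± 0.51 (adjusted p = 0.000766), and was not called in miR-290 KO (0.67) or miR-302 KO iPSC (-0.69). Rbl1 rose by 1.19 and Sp3, a zinc finger activator, by 1.39. Prdm14, known to repress Dnmt3 genes in ESC, had 682 reads in WT and 2 in the double KO, a ratio of 431 (exact Clopper-Pearson 95% interval from 119 to 3565). Dppa3, which restrains UHRF1, fell from 44.9 ± 28.1 to 0.08 ± 0.03 CPM (-7.58 on the log2 scale), and E2f4 changed by -1.39.

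Germline genes commonly held silent by promoter methylation were measured for 20 of 25 listed, and these had passed a filter of the authors whose rule is not given in the sources used here. None was called higher and 19 were called lower in the double KO, 7 of them at 0 reads there. A gene that is low in most groups may not pass such a filter, so neither this count nor its direction describes the listed genes as a whole. Tex19.1, active in germ cells and ESC, fell from 169 ± 25.4 to 0.47 ± 0.03 CPM (-8.15 on the log2 scale). Zfp42, a pluripotency marker as well, changed by -7.24. Dazl, a germ cell RNA-binding protein, had 1049 reads in WT and 0 in the double KO, at least 448-fold lower with a floor of 3 reads over the group. Sycp3, of the synaptonemal complex, was at least 146-fold lower by the same floor, and it was the only one of the list called in miR-290 KO iPSC (-2.41, adjusted p = 0.0187). None of the 20 was called in miR-302 KO iPSC. The fall of these genes accompanied the fall of the pluripotent markers given above, whose part in it was not tested.

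**Figure D4:**
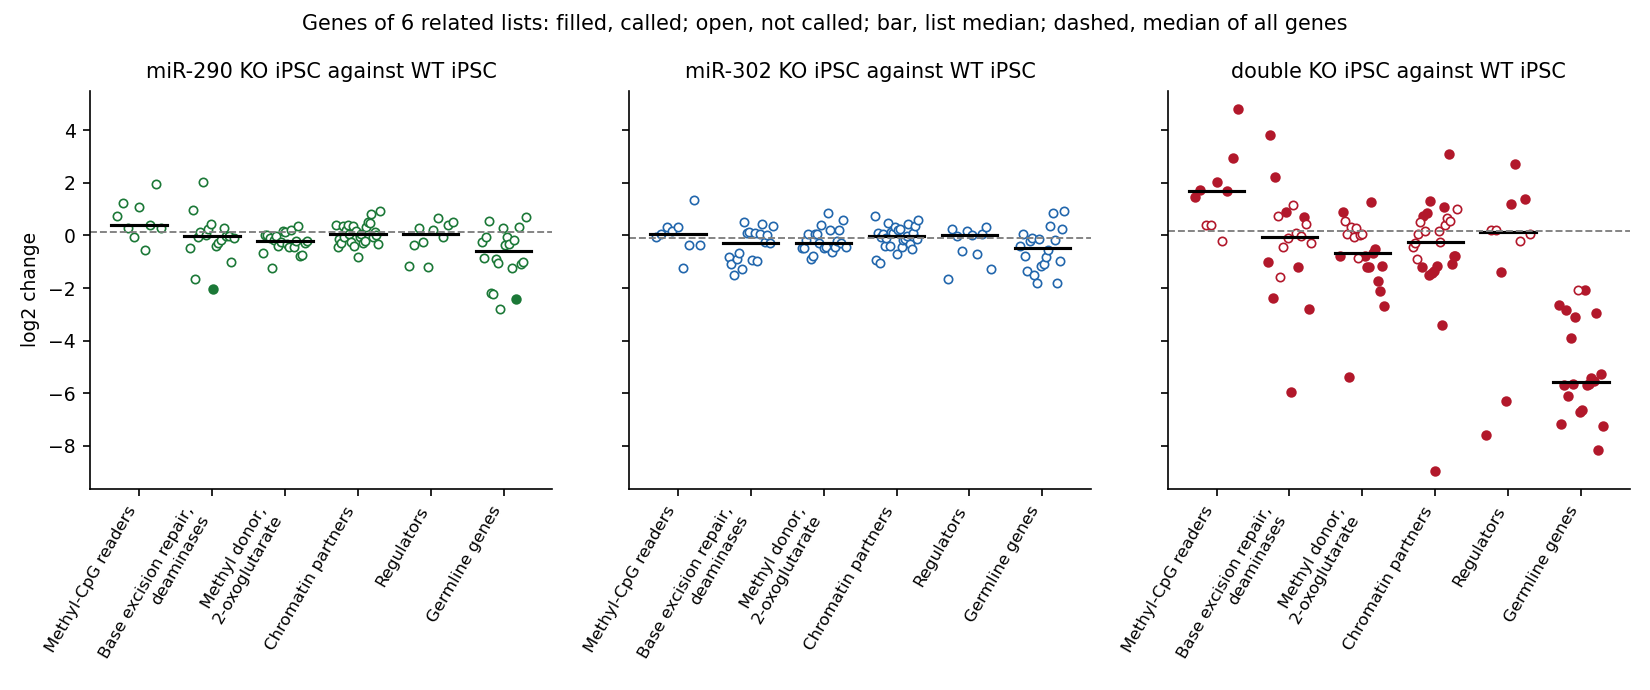
Log2 change against WT iPSC of each measured gene of 6 lists, in 3 knockout groups. Filled points were called, bars are list medians and the dashed line is the median of all genes. In the double KO the reader genes run from -0.22 to 4.82, with a median of 1.70. The measured germline genes, which passed the authors' filter, lie low there. In each single KO nearly all points are open.

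For the double KO against WT, the authors' deposited table lists 6 of the 8 genes, with log2 fold changes of -8.91 for Dnmt3l, -3.91 for Dnmt3b, -3.17 for Tet1, 3.81 for Tet3, -1.09 for Uhrf1 and -0.96 for Tet2. Dnmt1 and Dnmt3a are not in that table. Tet2, not called here, is thus in the authors' deposited table, which holds 8672 genes with an adjusted p of at most 0.05.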

How the data were processed

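QuantSeq 3′ libraries (200 ng of total RNA, single-end reads of 50 bp, per the labels' protocols) were analysed from the authors' deposited matrix and comparison tables. The submitters' processing notes name Trim Galore 0.66, STAR, Salmon 1.4.0, FastQC 0.11.9, MultiQC, limma, DESeq2 1.34.0 and the mouse build mm10, without saying which step made which file. How multiply mapped reads were handled is not given in the sources used here.

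The deposited matrix holds log2 values. From the values, they are log2 CPM with a prior of 0.909 to 3.52 reads, shifted by a constant per gene. Whole reads were recovered for 12239 of 12778 genes (95.8%), and 99.7% of their values were whole within 0.02 of a read. CPM is a gene's recovered reads scaled to the recovered total of the library. Recovered totals were 6435996 to 24974511 reads per library and 34591995 to 69325634 per group, which puts the floor of 3 reads over a group at 0.0433 to 0.0867 CPM. Reads carry no molecular identifiers, so intervals and floors cover counting error only. The deposited comparison tables give, per the file headers, log2 fold changes with an error, p-values and a test score, and also a mean of normalized counts, a signal averaged over samples by the authors that was not used. In the matrix, 6 columns match no sample and were not used.

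The deposited log2 values were tested in R 4.3.3 by limma 3.58.1 with a variance trend, 13 samples in 6 groups, 7 residual degrees of freedom and Benjamini-Hochberg adjustment over all 12778 genes in each of 10 comparisons. The spread is shared by all groups, colonies and single libraries alike. The prior shrinks changes of weakly expressed genes. The 22 alternatives were 13 that leave out a sample each and 9 other settings. Both the recovery and the fit were tested on simulated data.

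The 8 genes and the lists were chosen with earlier results of these data known. All 8 genes are named in every comparison. From each list, the 3 called genes with the largest change in each direction in the double KO are named, with every gene called in a single KO, and Rbl2 and Prdm14 whatever their values. Tdg was added after its values were seen. The value of 1 gene that this rule would name is not reported here. For likeness, the 3 genes with the highest correlation are named for Dnmt3l, Dnmt3b, Tet1 and Tet3, and the first for the others. Positions come from GENCODE M21 (mm10), and promoter and microRNA sequences from RefSeq (GRCm38.p6). Markers of 2-cell-like cells gave no recovered reads, and 3 of 6 were in the matrix, 2 of them called lower in the double KO.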

Additional observations from a re-analysis of the deposited data

Results flagged for a closer look

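In miR-290 KO iPSC, colony 1 library 2 had Tet1 at 68.9 CPM, while the other 3 libraries of the group lay between 146.1 and 156.2 CPM. In the deposited log2 values, the gap to the nearest library was 0.922 of the whole range of the group. Of 24 sets of 4 libraries examined (8 genes in 3 groups), this was the only one with a library so far apart, and chance alone flags about 1 set in 20. The Tet1 value of that colony, and with it the summed single change of Tet1, includes this library.

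For 5 genes the effect of losing 1 cluster differed by whether the other cluster was present, by the interaction test. The differences between the double KO change and the sum of the single changes were -9.64 for Dnmt3l, -4.73 for Tet1, -3.94 for Dnmt3b, -1.42 for Tet2 and 1.92 for Tet3 on the log2 scale. All 5 use the same WT and double KO samples.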

How the results depend on the processing

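Over the 22 alternatives, 1721 of 1760 values of the 8 genes stayed on the same side of the threshold, 29 calls were lost, 10 were gained and no called change reversed. When 1 sample at a time was left out, Uhrf1 could be lost in the double KO against WT, and Tet2 in the double KO against miR-302 KO. For the departure from the sum of the single changes, Tet2 and Tet3 could be lost. Dnmt3b was gained between miR-290 KO and miR-302 KO iPSC without miR-302 KO ESC replicate 1 or 2. With each library as a sample, Dnmt3b passed in that comparison as well. With estimated sample weights, Tet3 was called in miR-290 KO against WT. The cause was not tested in any of these.

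The labels' colony and replicate numbers were not used to pair the samples in the main fit. Deviations from the group means of same-numbered samples had a median correlation of -0.02 over 30 pairs (from -0.27 to 0.18). In a group of 2 samples the deviations mirror each other. These pairs are therefore not independent and do not settle whether the numbers pair the samples. With a replicate block, the double KO had 4 called genes against WT, 4 against miR-290 KO and 6 against miR-302 KO, and 4 for the departure from the sum, and 0 in the other comparisons.

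Median-of-ratios scaling moved the median change of all genes by -0.14 in miR-290 KO against WT, -0.22 in the double KO against miR-302 KO, -0.21 between the single KO iPSC and 0.13 in miR-302 KO iPSC against ESC, and moved the share of higher calls among all genes from 77.1% to 54.5% in miR-290 KO against WT and from 82.6% to 62.7% between the single KO iPSC. In the double KO against WT, 3502 genes called higher and 2753 lower became 3077 and 3208, so the balance turned. In miR-302 KO against WT, 3 higher and 1 lower became 3 and 3. Depth limits Tet3 in WT, at 29 to 39 reads per library, and Dnmt3l in the double KO, at 5 to 23. With 2 colonies a group, small changes can be missed.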
